A study of Mus musculus with 2 samples.

Results

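The complement components examined here were C3, C4b, C1qa, C1qb, C1qc, C2, Cfb, Cfp and C3ar1, that is 9 of the 20658 genes that could be named on the arrays. They were taken as every probe that is not a control and that was matched to these genes by RefSeq accession, which gave 10 probes and 28 spots. The set was put together around C3 because of its large ratio between the same 2 arrays, so the values of the members are a description of those arrays and nothing was tested with them. The RNA came from ovaries, taken at an age of 2 weeks from mice, that were cut lengthwise and kept in culture for 3 days. One group was cultured with agonists of the tachykinin receptors (TKRs), which were [Sar9,Met(O2)11]-SP for TACR1, GR-64349 for TACR2 and senktide for TACR3. The other was cultured with all 3 antagonists, 1 for each receptor, among them GR-94800 for TACR2 and SB218795 for TACR3. The study's methods give 1 μM for every ligand. Each group was represented by 1 array. No array of ovaries cultured without ligands was analysed here, so a higher value with the agonists is equally a lower value with the antagonists. Ovaries were cut so that differences between ovaries would weigh less, but which piece went to which array is not stated, and the strain and the number of ovaries behind each RNA are not given in the sources used here.

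Complement is a set of plasma and cell-surface proteins that tag microbes, dying cells and immune complexes for removal. In the classical pathway, C1q, built from the products of C1qa, C1qb and C1qc, binds the target and its attached proteases cleave C4 and C2. The fragments form an enzyme that cleaves C3, the component on which all activation pathways meet. In the alternative pathway, C3 fragments bind factor B (Cfb), and properdin (Cfp) stabilises the resulting enzyme. C3ar1 is the receptor for the small fragment C3a. The liver makes most plasma complement, while C1q comes largely from macrophages, and C3 transcription is known to respond to inflammatory cytokines through C/EBP and NF-kB factors.

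Promoters are shown for C3, the member with the highest ratio, and for 2 adjacent chains of C1q, C1qc just past 2-fold and C1qb just short of it. The log2 ratios of these chains differed by 0.27 (error 0.29), so the 2-fold threshold alone does not set them apart. No promoter was found for C4b and C1qa, which were also past 2-fold. RefSeq starts on GRCm38.p6 were found for C3, C1qb, C1qc, Cfp and C3ar1. Each sequence is the 250 bases before the start, read on the minus strand of the chromosome, and capitals mark matches to a searched motif. They lie at chr17:57228137-57228386 for C3, chr4:136886201-136886450 for C1qb and chr4:136892915-136893164 for C1qc.
C3: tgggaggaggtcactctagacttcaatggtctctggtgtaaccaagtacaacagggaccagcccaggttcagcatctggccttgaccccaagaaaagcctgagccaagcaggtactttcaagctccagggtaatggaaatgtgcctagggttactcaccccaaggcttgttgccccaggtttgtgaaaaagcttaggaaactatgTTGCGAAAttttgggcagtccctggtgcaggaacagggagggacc
C1qb: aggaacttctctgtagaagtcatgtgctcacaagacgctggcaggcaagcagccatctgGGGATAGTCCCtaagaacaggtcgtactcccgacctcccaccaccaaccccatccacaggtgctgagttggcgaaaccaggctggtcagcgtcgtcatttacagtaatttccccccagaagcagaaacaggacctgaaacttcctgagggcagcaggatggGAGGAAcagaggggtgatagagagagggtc
C1qc: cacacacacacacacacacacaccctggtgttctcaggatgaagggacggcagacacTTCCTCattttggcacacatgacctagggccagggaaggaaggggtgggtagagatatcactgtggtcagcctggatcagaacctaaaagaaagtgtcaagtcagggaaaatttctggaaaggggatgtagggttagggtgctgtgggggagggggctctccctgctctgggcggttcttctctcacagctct

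The motifs were searched on both strands. The capitals in C3 are a C/EBP match (TTGCNNAA), TTGCGAAA, which begins 45 bases before the start. Such a match was present in 9.56% of 32851 promoters of the same length and in 1 of the 5 member promoters. The first capitals in C1qb are matches to the NF-kB motif (GGGANNNTCC, 3.86% of promoters) on both strands, which overlap by all but 1 base at each end, and begin 191 and 190 bases before the start. The second capitals in C1qb and the capitals in C1qc are matches to the PU.1 motif (GAGGAA, 23.3% of promoters), the binding site of a factor of macrophages and other myeloid cells, beginning 30 and 193 bases before the start. C3ar1 held an AP-1 match (TGANTCA, 6.75% of promoters) 22 bases before its start, and Cfp held none of the searched motifs. The STAT motif (TTCNNNGAA) and the interferon response element (GAAANNGAAA), present in 7.02% and 2.98% of promoters, were found in 0 of the 5 member promoters. A match describes the letters only.

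Each signal is the brightness of a spot in the units of the scanner software. To compare arrays, the log2 of the 75th percentile over all non-control spots (672 with the agonists, 569 with the antagonists) was subtracted from each log2 signal. A log2 ratio is positive where a gene was brighter with the agonists, and its error is the scanner software's own estimate for the spots, which does not include the spread between ovaries. Of the 20658 named genes, 15258 were well above background on both arrays by the software's criterion, and their median log2 ratio was -0.10 (SD over genes 0.48). On the agonist array 65.4% of spots were well above background, and on the antagonist array 61.6%. All 9 members were well above background on both arrays. Without a second array in either group, the spread between ovaries is unknown and no test was made.

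C3 (NM_009778) was brighter with the agonists on both of its probes. One probe was printed in 10 spots, whose signal ran from 8689 to 9649 (median 9515) with the agonists and from 839 to 1015 (median 928) with the antagonists. No spot of one array reached the range of the other. After scaling, the log2 ratio was 3.10 ± 0.07 (SD over 10 spots of the same arrays), or 8.55-fold, with an error of 0.20, and 2.86 on the log2 scale separated the dimmest spot with the agonists from the brightest with the antagonists. Without scaling the fold was 10.1. The other probe of C3 was printed once and had a signal of 4636 with the agonists and 842 with the antagonists (log2 ratio 2.22, 4.66-fold, error 0.20). The probes of C3 thus differed by 0.88 in log2 ratio (error 0.29), more than their error. By the probe with 10 spots, C3 ranked 13 among the 15258 genes.

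C4b (NM_009780), a form of C4, the protein that C1-associated proteases cleave and that becomes part of the enzyme acting on C3, had a signal of 1709 with the agonists and 368 with the antagonists. The log2 ratio was 1.97 (3.93-fold, error 0.20), which was 1.12 (error 0.29) below that of C3 and ranked 110. Mice carry a near-identical gene, C4a, for which no probe was found by RefSeq accession, and whether C4a RNA also bound this probe was not tested.

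The C1q chains, the recognition subunit of the classical pathway, were all higher with the agonists. C1qa (NM_007572) had a signal of 914 with the agonists and 342 with the antagonists (log2 ratio 1.18, 2.26-fold, error 0.20). C1qb (NM_009777) had a signal of 760.3 with the agonists and 370.2 with the antagonists (log2 ratio 0.80, 1.74-fold, error 0.20). C1qc (NM_007574), printed in 10 spots, ran from 1933 to 2107 (median 2022) with the agonists and from 769 to 878 (median 809) with the antagonists. As with C3, the spots of the 2 arrays did not overlap, and the log2 ratio of C1qc was 1.07 ± 0.05 (SD over 10 spots), or 2.10-fold. The difference in log2 ratio between C1qa and C1qc was 0.11 (error 0.29), that between C1qc and C1qb 0.27 (error 0.29) and that between C1qa and C1qb 0.38 (error 0.29). The first and second of these lay within the error, so the order of the chains is not firm.

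C2 (NM_013484), the protease that joins the C4 fragment in the classical pathway enzyme, had a signal of 11244 with the agonists and 6462 with the antagonists. Its log2 ratio of 0.56 (1.47-fold, error 0.20) was 1.42 (error 0.29) below that of C4b, its partner in that enzyme. The C2 value was below 2-fold but higher than that of 90.3% of the genes measured on both arrays.

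The alternative pathway members had ratios near the median of all genes. Cfb (NM_008198) was dim, at 68.4 with the agonists and 56.4 with the antagonists, and its spot was 3.06 and 2.14 times its local background. Its log2 ratio was 0.04 (error 0.25), whose sign turned with median scaling, quantile normalization and normexp background correction. Cfp (NM_008823), mainly known from leukocytes rather than liver, had a signal of 1584 with the agonists and 1449 with the antagonists (log2 ratio -0.11, error 0.20), whose sign turned with no scaling, loess and spike-in scaling. The values of Cfb and Cfp differed by 0.15 (error 0.33), less than their error.

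C3ar1 (NM_009779), the C3a receptor of macrophages and other myeloid cells, was close to background, at 50.1 with the agonists and 32.4 with the antagonists, and its spot was 2.47 and 1.52 times its local background. Its log2 ratio was 0.39 (error 0.31), and 0.07 with normexp background correction.

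**Figure D1:**
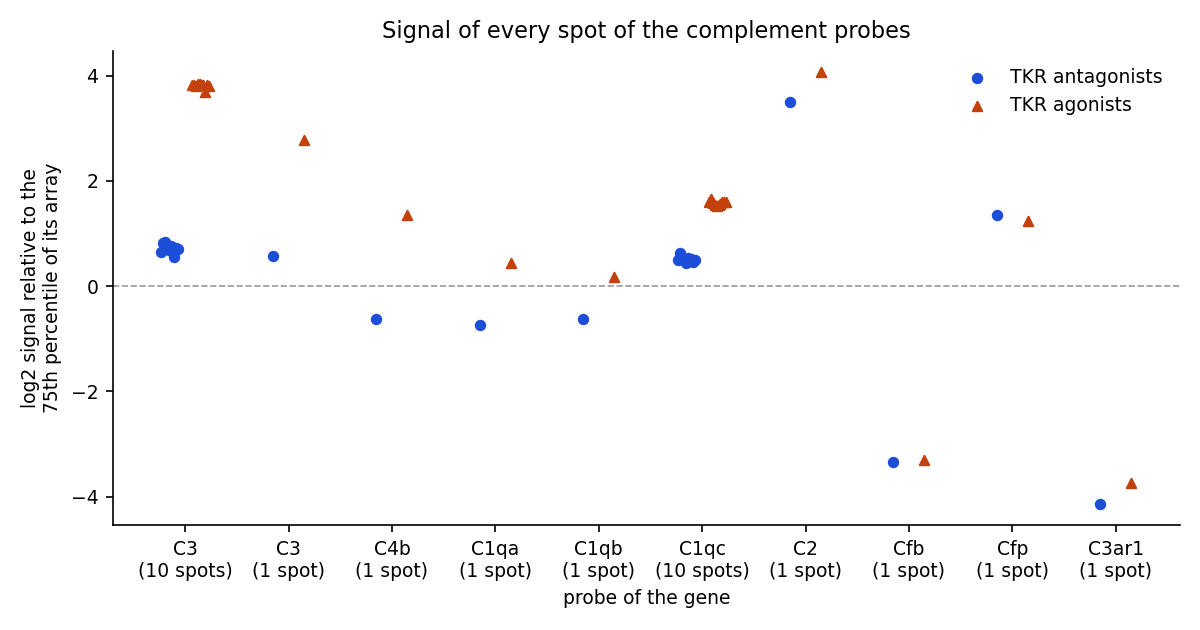
Signal of each spot of the member probes on the array with TKR agonists (triangles) and the array with TKR antagonists (circles), as log2 relative to the 75th percentile of that array, with each probe on the horizontal axis. The 10 agonist spots of C3 and of C1qc lie above all 10 antagonist spots of the same probe, while the spots of Cfb and Cfp lie close together.

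Over the 9 members, the log2 ratio ran from -0.11 (Cfp) to 3.10 (C3) with a median of 0.80, beside the median of -0.10 over all 15258 genes. A ratio of at least 2-fold higher with the agonists was present in 4 of 9 members, C3, C4b, C1qa and C1qc, and in 4.01% of all genes. A ratio of at least 2-fold lower was present in 0 of 9 members and in 0.577% of all genes. These shares stand side by side as a description, since the set was chosen on this contrast. At the threshold of 2-fold, C1qc (1.07) lay just inside and C1qb (0.80) just outside. C1qb was past 2-fold on unscaled arrays (1.04) and on arrays scaled by their spike-in probes (1.07). In descending order of the log2 ratio the members were C3, C4b, C1qa, C1qc, C1qb, C2, C3ar1, Cfb and Cfp. Of the neighbours in this order, C4b and C1qa (difference 0.79, error 0.29) differed by more than their error. C3 and C4b did so by the C3 probe with 10 spots, while the other C3 probe (2.22) was closer to C4b (1.97). C1qa and C1qc, C1qc and C1qb, and C1qb and C2 (0.24, error 0.29) differed by less than their error. So did C2 and C3ar1 (0.17, error 0.37), C3ar1 and Cfb (0.35, error 0.40) and Cfb and Cfp.

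**Figure D2:**
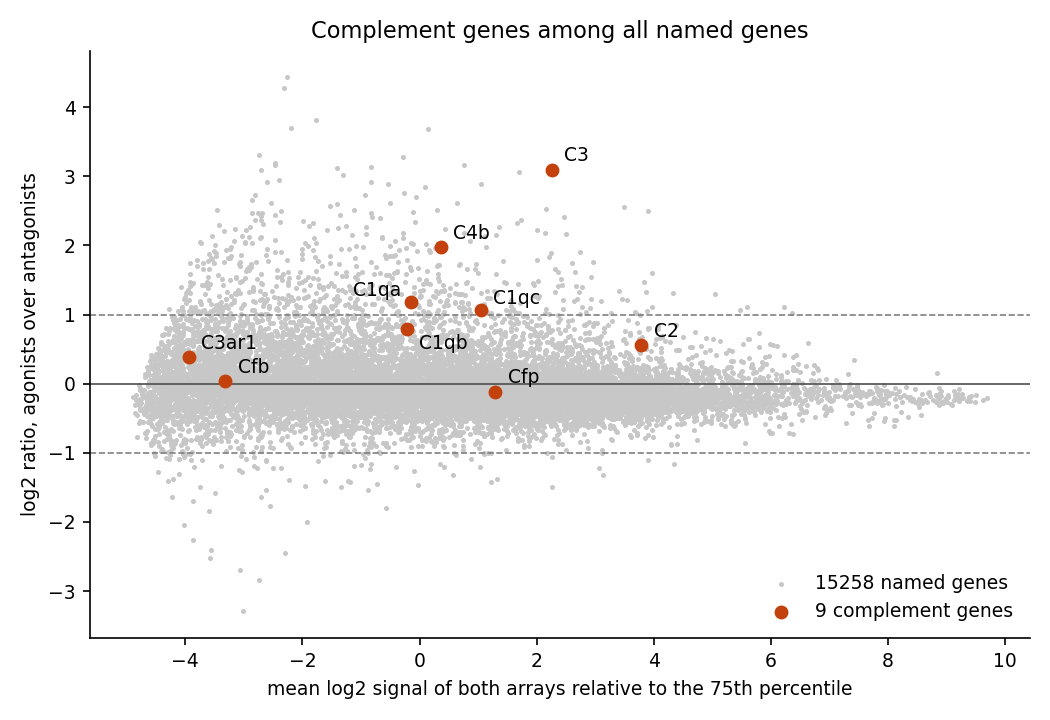
Log2 ratio, agonists over antagonists, against the mean log2 signal of both arrays relative to the 75th percentile, for 15258 named genes well above background on both arrays (grey) and the 9 complement members (orange). Dashed lines mark 2-fold; C3, C4b, C1qa and C1qc lie above the upper line, and C3 stands apart from most genes of similar brightness.

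The order of the members by log2 ratio was the same under the 8 other scalings and background corrections, several of which shift all genes by a constant. The median log2 ratio of all genes moved from -0.10 to between -0.15 (median scaling) and 0.18 (spike-in scaling). The members' median stood 0.89 above that of all genes with the 75th percentile, and 0.72 above it with normexp background correction, the lowest value over the scalings and background corrections tried.

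**Figure D3:**
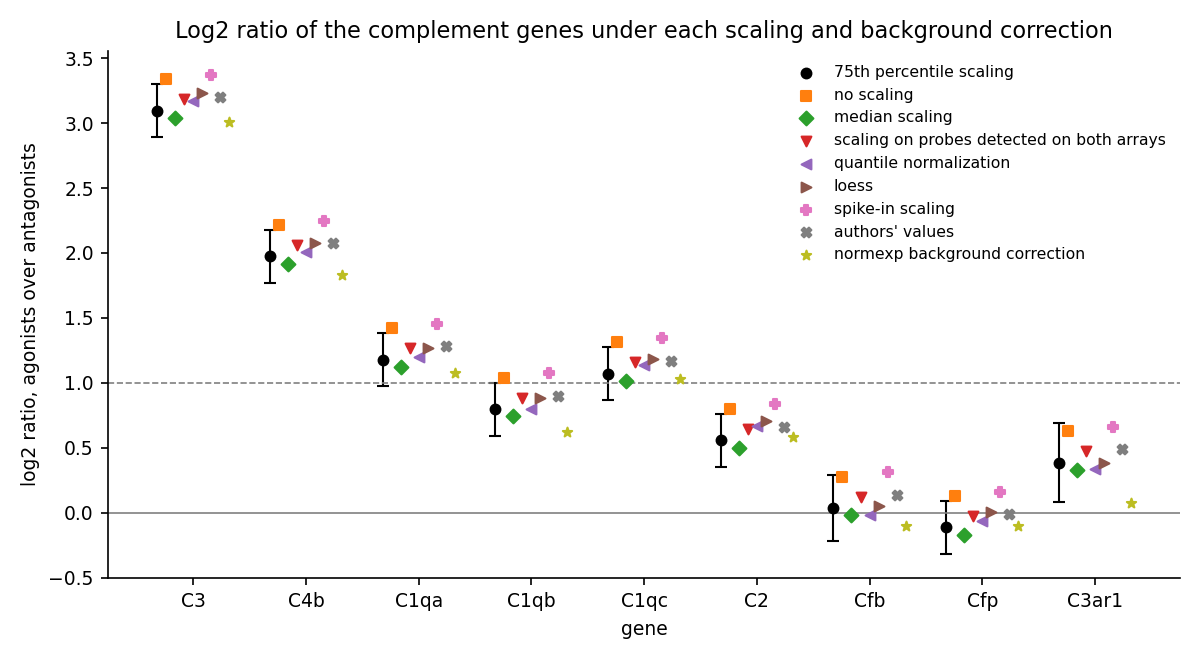
Log2 ratio of each member under the 75th percentile scaling (black, with the software's error) and under 8 other scalings or background corrections. C3 stays at or above 3.00 and C4b between 1.83 and 2.25 in all 9, C1qb crosses the dashed 2-fold line in 2 of them, and Cfb and Cfp lie on either side of 0.

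The other complement genes, a list of 48, are given by their role. Of these, 47 had a probe, 30 were well above background on both arrays, 6 on the agonist array only, 1 on the antagonist array only and 10 on neither. Where a pair of signals is given below, the first is that with the agonists. Over the 30, the median log2 ratio was 0.38 (range -0.52 to 2.51). Of them, 10 were at least 2-fold higher with the agonists, 0 at least 2-fold lower and 20 neither. Among all 15258 genes, 4.01% were past 2-fold upwards and 0.577% downwards. The counts by role below stand beside these shares and rest on few genes each.

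Among the proteases that act with C1q, 2 of 5 measured were past 2-fold. C1s2 had a signal of 6088 with the agonists and 1680 with the antagonists (log2 ratio 1.62, another probe 1.35), and C1s1 4594 and 1385 (1.49). C1ra was at 3282 and 1582 (0.81, another probe 1.10) and C1rb at 194 and 103 (0.68). C1s1 and C1s2, like C1ra and C1rb, are near-identical copies, so their values may share RNA. C1rl, a relative of the C1r proteases, was at 1358 and 1152 with a log2 ratio of -0.00, whose sign depended on the scaling.

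In the lectin pathway, whose soluble lectins bind sugars on a target, 4 of 9 genes were measured on both arrays. Colec11 was at 1064 with the agonists and 373 with the antagonists (log2 ratio 1.27), Colec12, a membrane-bound collectin, at 763 and 400.3 (0.69) and Mbl2 at 4699 and 3585 (0.15). Masp2, the protease that cleaves C4 and C2 in this pathway, was at 148 and 179.9 (-0.52, another probe -0.63), the lowest ratio over the 30 genes. Fcna, a ficolin, was well above background on the agonist array only, at 132 against 15.9, and so higher there by at least 5.61-fold on the software's background-corrected signals. With normexp background correction, which adds an offset, its log2 ratio was 0.90. Of the alternative pathway, Cfd, the protease that cleaves factor B, was well above background on the antagonist array only, at 21.9 against 12.0, and so higher there by at least 1.43-fold (log2 ratio -0.32 with normexp).

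The terminal components, which build the membrane pore, were past 2-fold in 1 of 5. This was Hc, the mouse C5 gene, at 739 with the agonists and 109 with the antagonists (log2 ratio 2.51, 5.71-fold, error 0.21, and 1.97 in log2 ratio with normexp). C8g (0.27, another probe -0.01) and C8b (0.19) were closer to 0, and C7 (-0.20) and C6 (-0.26) were dim and changed sign with the scaling. C8a and C9 were not well above background on either array.

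The fluid-phase regulators, which restrain complement in plasma, were past 2-fold in 3 of 4 measured. Cfi, the protease that inactivates C3 and C4 fragments, was at 487 with the agonists and 88.2 with the antagonists (log2 ratio 2.22, 4.67-fold), and at 1.46 in log2 ratio with normexp. Serping1, the C1 inhibitor, was at 6074 and 1802 (1.51, another probe 1.40). Cfhr2 was at 15490.1 and 6099 (1.10, another probe 0.80). Clu, clusterin, had a log2 ratio of -0.02, whose sign depended on the scaling. Vtn, vitronectin, was well above background on the agonist array only, at 36.3 against 19.2, a fold of at least 1.54 that was lost with normexp (log2 ratio -0.02). Regulators as well as activating components were thus among the genes past 2-fold.

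Of the membrane regulators, which protect host cells, 1 of 6 was past 2-fold, Csmd1, at 173 with the agonists and 33.3 with the antagonists (log2 ratio 2.14, and 1.05 with normexp). Cd55b (0.52), Susd4 (0.35), Cd55 (0.35), Cd59a (0.18) and Cr1l (-0.28) were not. Cd59b and Cd46 were well above background with the agonists only, with folds of at least 2.35 and 1.64, which normexp reduced to log2 ratios of 0.30 and -0.06. Of the complement receptors, Itgax, a chain of complement receptor 4, was at 234 and 52.8 (1.91, and 1.06 with normexp), and Cd93, first described as a receptor for C1q and abundant in endothelium, at 18479 and 5138 (1.61). Itgb2, the shared integrin chain, had a log2 ratio of 0.42, C5ar2 0.16, Cr2 -0.04 with a sign that depended on the scaling, and Itgam -0.31 with other probes from -0.39 to 0.64. C5ar1, the C5a receptor, and Vsig4, a C3 fragment receptor of macrophages, were well above background with the agonists only, with folds of at least 1.23 and 1.06 that normexp took to log2 ratios of 0.07 and -0.05.

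**Figure D4:**
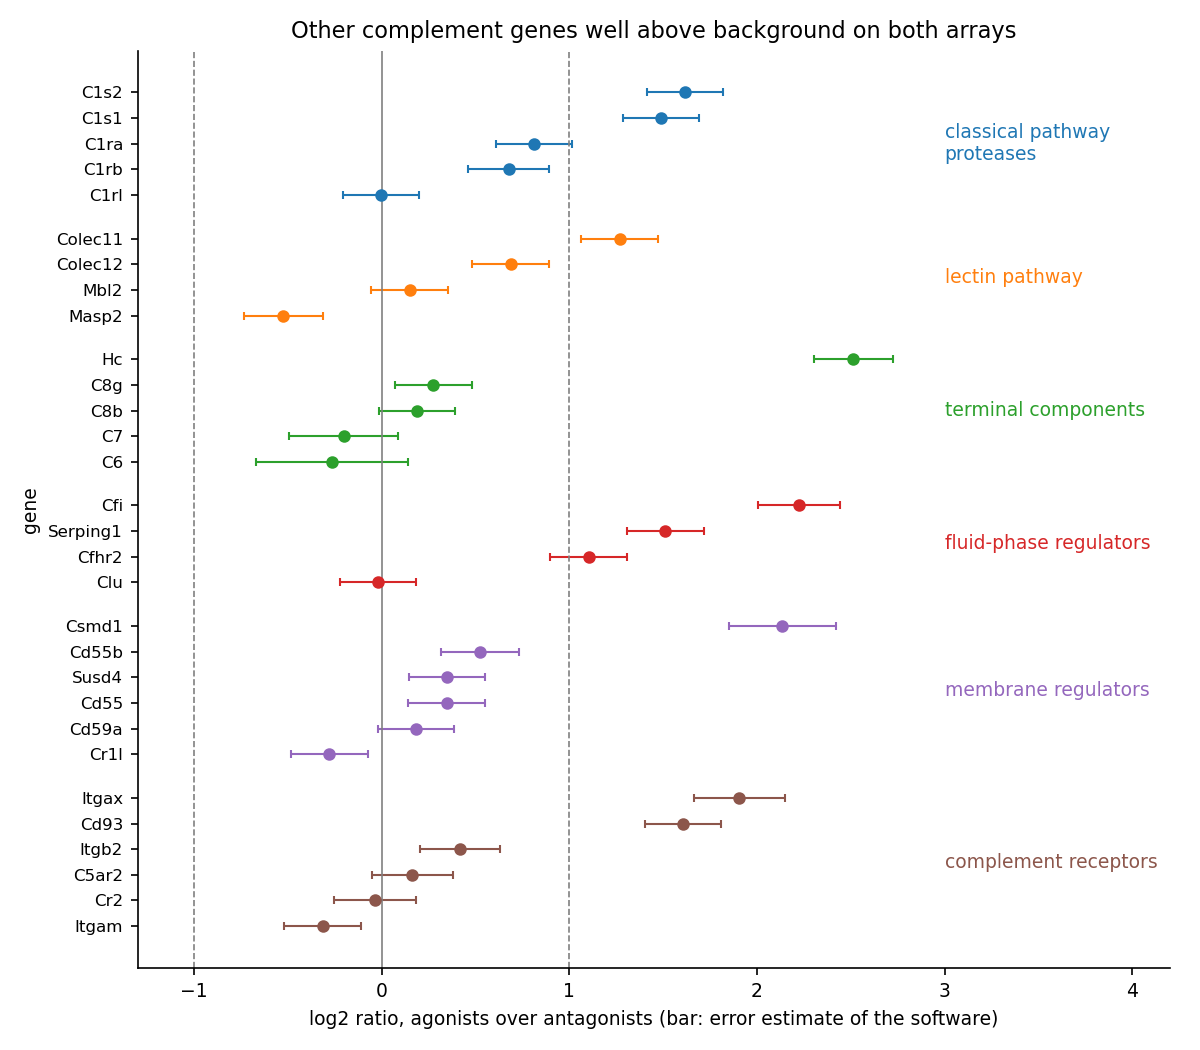
Log2 ratio, agonists over antagonists, of the 30 other complement genes well above background on both arrays, grouped by role, with the software's error estimate as bars. Of these, 10 lie past the upper dashed line of 2-fold, with Hc at 2.51 and Cfi at 2.22, and 0 lie past the lower one. The shares of all genes past these lines were 4.01% and 0.577%.

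In RNA of whole ovary pieces, more cells of a type and more RNA per cell cannot be told apart. Markers of other cells therefore stand beside the members. Of 16 macrophage markers, 15 had a probe, with unscaled signals that summed to 18029.6 with the agonists and 9595 with the antagonists. After scaling, the log2 ratio of these sums was 0.67. Of the markers, 12 were well above background on both arrays. All 12 had a log2 ratio above 0, with a median of 0.96 and a range from 0.15 to 2.61, and 5 of 12 were at least 2-fold higher. Of all 15258 genes, 5750 were above 0 and 4.01% were at least 2-fold higher. Cx3cr1 was at 1176 and 163 (2.61, and 2.10 with normexp), Aif1 at 902 and 213 (1.84, and 1.60 with normexp) and Mrc1 at 588 and 141 (1.82, and 1.33 with normexp). Adgre1 was at 370.0 and 117 (1.42, another probe 0.72) and Laptm5 at 154 and 56.3 (1.21). With normexp both fell short of 2-fold, Adgre1 at 0.87 and Laptm5 at 0.69. Csf1r, a defining marker, was at 5607 and 4285 (0.15, other probes from -0.09 to 0.04), and Cd163 was not well above background on either array. C1qc, the middle one of the C1q chains, was at 1.07. The part of macrophages in the member ratios was not tested.

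Some other marker lists were higher with the agonists too. Their counts stand beside the 4.01% of all genes that were at least 2-fold higher. The 9 measured markers of the ovarian surface epithelium had a median log2 ratio of 1.15, from 0.62 (Upk3b) to 3.68 (Dmkn), with 6 at least 2-fold higher. Their unscaled signals summed to 28891 and 10234 (log2 ratio of the scaled sums 1.26). With normexp Krt7 (0.90) and Upk1b (0.52) fell short of 2-fold, as did Krt18 with median scaling (0.97). The 7 endothelium markers had a median of 0.88, from -0.27 (Kdr, with another probe at 0.38) to 2.49 (Vwf, 1.35 with normexp), with 2 at least 2-fold higher, and the 7 stroma markers a median of 0.38 with 0 at least 2-fold higher. Another endothelium marker, Tek, and another stroma marker, Dpt, were well above background with the agonists only, with folds of at least 4.10 and 2.90, and log2 ratios of 0.60 and 0.48 with normexp. The 10 granulosa cell markers had a median of -0.47, from -0.78 (Fst) to 0.37 (Cyp19a1). Their unscaled signals summed to 78587 and 88779 (log2 ratio of the scaled sums -0.42). The 10 oocyte markers had a median of 0.11, from -0.13 (Zp3) to 0.59 (Figla). Of the 8 hepatocyte markers, 3 were measured on both arrays and went different ways, Serpina1a at 1.86 (0.77 with normexp), Ttr at -0.17 and Apoa1 at 296 and 501, just past 2-fold lower (-0.88 with normexp). Hnf4a was just above background on the agonist array only, and the defining Alb, Apob, Cps1 and Fgb were not well above background on either. Of the 6 adipocyte markers, 3 were measured on both arrays, with a median of 0.59. Retn (-0.79, another probe -0.56) and Plin1 (0.59) were short of 2-fold. Fabp4, found in adipocytes, macrophages and endothelium, was at 739 and 44.2 (3.82, and 2.52 with normexp). Cidec was well above background with the agonists only, and Adipoq and Lep on neither array. Of the 8 neutrophil markers, 2 were measured on both arrays (median -0.05) and S100a8, Cxcr2 and Retnlg on neither. S100a9 and Mpo were well above background with the agonists only, with folds of at least 1.35 and 1.25, and log2 ratios of 0.08 and 0.18 with normexp. The 4 lymphocyte markers measured on both arrays had a median of -0.19, with 2 others on the agonist array only and 1 on the antagonist array only. The part of these cell types in the member ratios was not tested.

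Genes of inflammation were listed as well. The acute phase and interleukin-6 target genes were measured on both arrays in 10 of 12, had a median log2 ratio of 1.16, and were above 0 in 10 of 10, with 6 at least 2-fold higher. Of these 6, Hp fell short of 2-fold with normexp (0.94) and Bcl3 with median scaling (0.94). Over all genes, 5750 of 15258 were above 0 and 4.01% at least 2-fold higher. Saa3, a serum amyloid A, was at 744 with the agonists and 72.2 with the antagonists (3.12, and 2.22 with normexp), Lbp, which binds lipopolysaccharide, at 361 and 76.4 (2.00, and 1.38 with normexp) and Cebpd, a C/EBP factor, at 11407 and 3793 (1.35). Socs3, a feedback inhibitor induced by STAT3, was at 3679 and 1854 (0.75), and Cebpb, another C/EBP factor, at 6579 and 5043 (0.14). The interferon response genes had a median of -0.49, with 0 of 10 past 2-fold upwards and 3 downwards, where 0.577% of all genes were past 2-fold downwards. These 3 were Ifit3 (-1.53, and -1.25 with normexp), Ifit1 (-1.41, and -1.11 with normexp) and Cxcl10 (-1.21, and -0.99 with normexp, short of 2-fold). The medians of these lists kept their signs under the 8 other scalings and background corrections, from 0.98 to 1.44 for the first and from -0.55 to -0.21 for the second.

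**Figure D5:**
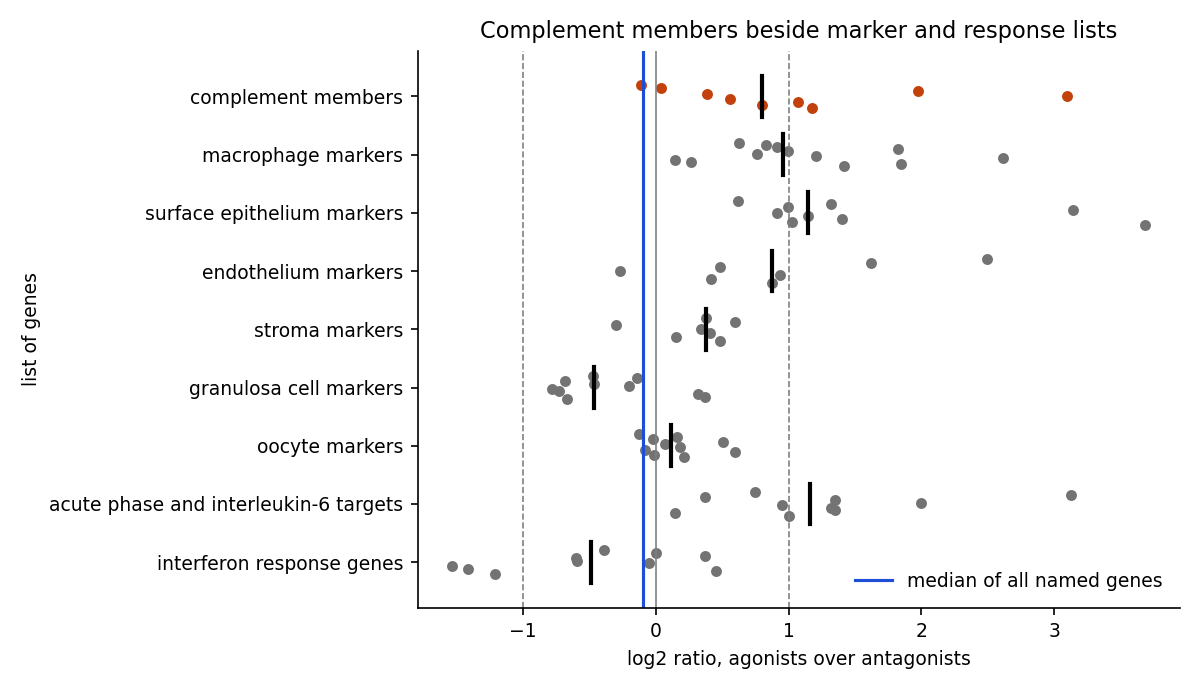
Log2 ratio, agonists over antagonists, of each gene well above background on both arrays (points) and the median of each list (black bars), for the complement members (orange) and the marker and response lists (grey). The blue line is the median of all 15258 genes, -0.10; the complement median of 0.80 lies between those of the stroma and endothelium lists, and the granulosa cell and interferon lists lie to the left of the line.

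Several members are neighbours on their chromosomes, as listed in the gene order of GRCm38. C4b, Cfb and C2 lie in the same stretch of chromosome 17, and of the 11 other genes with a probe between them or among the 3 nearest on each side, 10 were measured on both arrays. These had log2 ratios from -0.44 (Nelfe) to 0.03 (Zbtb12), so C4b (1.97) and C2 (0.56) lay above all 10 of them, and Cfb (0.04) was level with the highest. C1qb, C1qc and C1qa are adjacent on chromosome 4, and 4 of their 6 neighbours were measured on both arrays, from -0.13 (Zbtb40) to 0.46 (Epha8). C3 lies elsewhere on chromosome 17, beside Trip10 (0.02), Gpr108 (-0.33), Tnfsf9 (0.15) and Vav1, a signalling protein of blood cells, which was at 456 with the agonists and 181 with the antagonists (1.09).

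With 1 array a group, likeness between genes can only be read as similar brightness and a similar log2 ratio over 2 arrays. Of 3693 genes within 1 unit of C3 in mean log2 signal, those nearest to it in log2 ratio were Ly6c1 (3.07), Ctla2b (2.53), Penk (2.41), Ccn2 (2.37) and Phyhd1 (2.33). The gap from C3 to Ly6c1 was 0.03 and that to Ctla2b 0.56. Of 4072 genes around C1qc, the nearest were Dglucy (1.06), Plekha4 (1.07), Cmya5 (1.07), Notch1 (1.06) and Rasip1 (1.08), all within 0.02 of it. By log2 ratio C3 ranked 13 and C1qc 539 among all genes. Few genes had a ratio as high as that of C3, so the gaps around C3 and around C1qc cannot be compared.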

How the data were processed

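Agilent SurePrint G3 Mouse GE 8x60K single-colour arrays were hybridised, 1 per group, on the same slide. The authors deposited linear spot intensities from Agilent Feature Extraction 10.10.1.1, background-corrected by that software and not scaled between arrays. A deposited value table was 1.99 (agonists) or 2.19 (antagonists) times these intensities, within a relative deviation of 4.97e-10.

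Of the non-control spots, 59305 in number, those flagged as outliers were removed. Each log2 signal had the log2 of the 75th percentile of that array subtracted, and replicate spots were averaged into 55674 probes, called well above background when more than 50% of the spots were. A gene took the value of its brightest probe on average. Symbols came from RefSeq transcripts of GRCm38.p6 for 27230 probes, a match that found no probe for C4a, Cd68, Ly6g and Muc16; 1 listed complement gene is not reported here. Where only 1 array was well above background, the fold is a lower bound: the dim side was set to its own signal or to the dimmest signal called well above background on that array, whichever was larger. With 1 array per group, no test was made, no p-value is given, and the number of arrays limits the precision.

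The members, the lists and the rule for named genes (every member, other complement genes well above background on an array, leading list genes, and the 5 genes most like C3 and C1qc) were chosen with earlier results of these data known. Alternatives covered scaling (loess with span 0.3 among others), the authors' values, normexp (offset 50), the averaging of spots and of probes, dim-probe filters and a 4-fold threshold. R 4.3.3 with limma 3.58.1 and Python 3.11.15 with scipy 1.17.1, pandas 2.3.3, numpy 2.4.6 and matplotlib 3.10.9 were used, and the calculation was tested on simulated data.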

Additional observations from a re-analysis of the deposited data

How the results depend on the processing

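No paired analysis was possible because there is a single array for either group. The log2 ratio of C3 was 3.34 unscaled, 3.37 scaled on the spike-in probes and 2.66 as the mean over its probes, and otherwise stayed within its error. The other single members gave 88 values under the alternatives, of which 74 stayed within the error of the ratio and 14 moved by more; 6 changed sign, all of Cfb or Cfp. Leaving the arrays unscaled gave medians of 1.04 for the members, 0.62 for the other complement genes and 1.20 for the macrophage markers, and 992 genes past 2-fold upwards and 39 downwards, where the 75th percentile gave 612 and 88. Scaling on the spike-in probes gave medians of 1.07, 0.66 and 1.23 for these lists, and 1054 and 35 genes. Bright probes alone (at or over the 75th percentile on average) gave medians of 1.07 for the members and 0.73 for the macrophage markers, 6 other complement genes past 2-fold upwards, and 176 and 19 genes. A 4-fold threshold left 1 member, C3, with 3 other complement genes upwards, and 104 and 9 genes. Without the dim-probe filter 3 other complement genes were past 2-fold downwards, and the counts were 1349 and 554 genes. Normexp gave 323 and 33 genes, and the authors' values gave 58 downwards. Signal over background limits Cfb and C3ar1 most, with spots 1.52 to 3.06 times their local background.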
